A study of Mus musculus with 12 samples.

Results

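Lmnb1 and 8 other genes of the nuclear lamina and its membrane anchors (Lmnb2, Lmna, Tmpo, Banf1, Sun1, Sun2, Syne1 and Syne2) were followed in the mouse thymus on 12 one-colour Affymetrix arrays. The members were all probe sets that the array's gene table assigned to these symbols: 29 of 45037 on the array. Probe sets were tested if their log2 value averaged 5 or more, which 16 of the 29 and 17925 of all did. The groups, with 3 biological replicates each, were XX and XY- gonadal females and XXsry and XY-sry gonadal males, all aged 7 to 8 weeks. As background, these names are those of a mouse model in which the Y chromosome, written Y-, lacks the testis-determining gene Sry and a separate Sry transgene, inherited apart from the sex chromosomes, sets gonadal sex. Mouse strain, transgene promoter and insertion site are not stated in the labels. The question the design addresses is which genes outside the sex chromosomes follow the sex chromosome complement and which follow gonadal sex. Lmnb1 was taken up because it stood out in these arrays for a complement difference of opposite direction in females and males, and the other genes were grouped around it by function. The interaction values and the 4 pairwise group differences that make it up are therefore given as a description, with no p-value, and nothing is read from how many of them passed the threshold used for all probe sets. The effects of gonadal sex and of complement, each averaged over the other factor, are other contrasts than the interaction and were tested. For Lmnb1, the choice of opposite complement differences favoured a small averaged complement effect, so its complement test is not independent of that choice.

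The nuclear lamina is a meshwork of lamin filaments beneath the inner nuclear membrane that shapes the nucleus and anchors chromatin. Lmnb1 and Lmnb2 encode the B-type lamins, and Lmna encodes the A-type lamins A and C. Proteins of the inner nuclear membrane bind lamins and chromatin, among them products of Tmpo, known as LAP2 proteins, which also bind the small DNA-bridging protein encoded by Banf1. Sun1 and Sun2 span the inner membrane and hold the nesprins, encoded by Syne1 and Syne2, in the outer membrane, so that the lamina is tied to the cytoskeleton. In the thymus, thymocytes are lymphocytes with little cytoplasm, and many of them are dividing.

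Values are on the log2 scale after RMA, the normalization run by the authors, so a difference of 1 is a doubling. Each probe set reports 1 stretch of a transcript, and levels of different probe sets were not set against each other. Array medians lay between 4.02 and 4.10, the highest being XY- replicate 2. The difference between the 3' and 5' probe sets of actin, which follows RNA quality, was lowest in the same array, at 0.51. Of the 10 thymocyte markers listed, 9 were on the array under a single symbol and all 9 passed the filter, with means from 6.74 to 11.85. In whole tissue, fewer cells of a type and less RNA per cell cannot be told apart.

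The sequence upstream of the transcription start is shown for 3 members: Lmnb2, the gene whose gonadal sex difference passed the test, Tmpo, whose probe set came next by p, and Banf1, a partner with no such difference called. Each is the 250 bases before an annotated start, read 5′ to 3′ in the direction of the gene, from RefSeq on GRCm38.p6. Capitals mark letters of a CCAAT box (CCAAT), of the cell cycle homology region (TTTGAA) or of an E2F site (TTTCCCGC, TTTCGCGC, TTTGCCGC or TTTGGCGC), searched on both strands. No 2 of these motifs overlapped in the windows shown.
Lmnb2, chr10:80918246-80918495, minus strand: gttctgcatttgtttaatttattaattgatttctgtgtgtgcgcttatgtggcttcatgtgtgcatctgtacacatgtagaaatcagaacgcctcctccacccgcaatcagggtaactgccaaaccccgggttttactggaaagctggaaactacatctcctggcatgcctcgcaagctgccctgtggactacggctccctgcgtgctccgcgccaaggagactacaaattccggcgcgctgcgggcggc
Tmpo, chr10:91171620-91171869, minus strand: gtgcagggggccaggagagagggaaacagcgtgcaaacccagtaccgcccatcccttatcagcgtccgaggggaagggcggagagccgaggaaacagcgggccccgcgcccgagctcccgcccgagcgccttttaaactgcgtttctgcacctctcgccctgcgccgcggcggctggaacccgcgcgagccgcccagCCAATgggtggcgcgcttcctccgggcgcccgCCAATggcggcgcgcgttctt
Banf1, chr19:5366877-5367126, minus strand: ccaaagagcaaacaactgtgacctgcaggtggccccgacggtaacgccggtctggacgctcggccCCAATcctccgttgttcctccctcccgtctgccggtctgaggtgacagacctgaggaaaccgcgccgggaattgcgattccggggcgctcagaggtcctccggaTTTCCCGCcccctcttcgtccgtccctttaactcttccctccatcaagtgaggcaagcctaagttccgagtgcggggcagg

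The Lmnb2 window held none of these letters, the Tmpo window held 2 CCAAT boxes, 53 and 21 bases before the start, and the Banf1 window held 1 CCAAT box and 1 E2F match (TTTCCCGC). Of the 32851 promoters in the table, 33.8% held a CCAAT box, 16% TTTGAA and 1.9% an E2F match in the same window. Windows were read at 15 starts for 8 of the 9 members, and none was read for Lmnb1. A second Tmpo start had both an E2F match and TTTGAA, and Sun1 had CCAAT boxes at both of its starts. A match is a string of letters, and binding was not measured.

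Lmnb1, the B-type lamin gene with the widest differences between groups here, was high in XX females and XY-sry males and low in XXsry males and XY- females. In 1 of its probe sets (1423521_at), the XX arrays read 8.40, 8.30 and 8.02 and the XXsry arrays 7.68, 7.82 and 7.79. The XY- arrays read 7.83, 7.82 and 7.65, and the XY-sry arrays 8.21, 8.19 and 8.30. All 6 arrays of XX and XY-sry lay above all 6 arrays of the other groups. Group means were 8.24 ± 0.197 (SD, n = 3) in XX, 8.23 ± 0.059 in XY-sry, 7.77 ± 0.101 in XY- and 7.76 ± 0.074 in XXsry. In that order, the first pair of neighbours differed by 0.007 and the last pair by 0.004, and arrays of each pair overlapped, whereas XY-sry and XY- differed by 0.47 with no overlap.

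**Figure D1:**
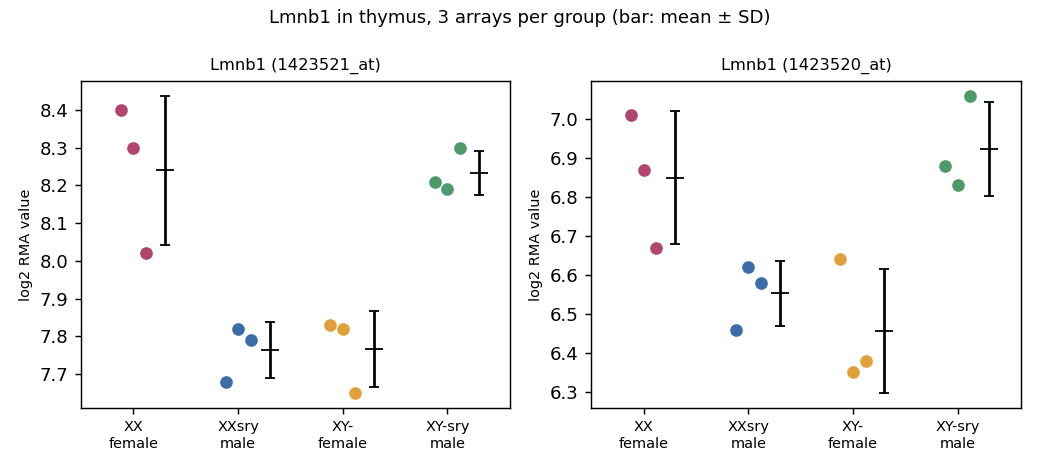
Log2 RMA values of both Lmnb1 probe sets (vertical axis) in each array of the 4 groups (horizontal axis), with the mean ± SD beside the points; the axes do not start at 0. In both panels the XX and XY-sry points lie above all XXsry and XY- points, with means of 8.24 and 8.23 against 7.76 and 7.77 for 1423521_at.

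The other Lmnb1 probe set (1423520_at) gave the same division. Its XX arrays read 7.01, 6.87 and 6.67, its XXsry arrays 6.46, 6.62 and 6.58, its XY- arrays 6.64, 6.35 and 6.38, and its XY-sry arrays 6.88, 6.83 and 7.06. Again the 6 arrays of XX and XY-sry lay above the other 6, though by a narrow margin: XX replicate 3 was at 6.67 and XY- replicate 1 at 6.64. Over all tested probe sets this separation was seen in the same direction in 0.446%, 80 of 17925, and in either direction in 1.24%. The probe sets had a Pearson correlation of 0.93 over the 12 arrays, which they share.

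The complement difference of Lmnb1 in females, XX minus XY-, was 0.47 ± 0.091 (standard error, 3 arrays per group) with 1423521_at and 0.39 ± 0.102 with 1423520_at. In males, XXsry minus XY-sry, it was -0.47 ± 0.091 and -0.37 ± 0.102. Seen the other way, the difference of males from females was -0.48 ± 0.091 and -0.30 ± 0.102 within XX, and 0.47 ± 0.091 and 0.47 ± 0.102 within XY-. The interaction, the complement difference in females minus that in males, was therefore 0.94 ± 0.129 and 0.76 ± 0.144. These are the values for which Lmnb1 was chosen. As a scale, the size of the interaction had a median of 0.10 and a 99th percentile of 1.09 over all tested probe sets.

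Among the 16 tested members, the 2 Lmnb1 probe sets were past an adjusted p of 0.05 for the interaction in limma, and 14 were not, where 1.29% of all tested probe sets were (0.268% higher, 1.03% lower). For gonadal sex within XX, 1 Lmnb1 probe set was past it and lower, beside 0.742% of all (0.391% higher, 0.351% lower), and within XY- both were past it and higher, beside 8.64% of all (4.27% higher, 4.37% lower). For complement, 0 of 16 were past it within females and 0 within males, beside 0.0781% and 0.128% of all. These counts describe the values by which Lmnb1 was chosen and are no evidence for them. The interaction count was 0 without XX replicate 1, XY-sry replicate 1 or 3, or XXsry replicate 2 or 3. In these fits 0 or 1 of all 17925 tested probe sets passed, against 232 in the main fit. The interaction count was 1 without XX replicate 2 or 3 or XXsry replicate 1, where 37, 11 and 99 of all passed. With the actin difference as a covariate it was 0, where 1 of all passed, and the fitted interactions were 1.00 and 0.65. That actin difference ran from 0.66 to 0.77 in XX, 0.71 to 0.76 in XXsry, 0.51 to 0.69 in XY- and 0.74 to 0.83 in XY-sry. It was therefore higher in XY-sry than in XY- without overlap, and its part in the Lmnb1 difference was not tested beyond this fit.

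Averaged over the other factor, no difference of Lmnb1 passed the test. The gonadal sex effect, males minus females, was -0.01 ± 0.064 with 1423521_at (95% interval -0.15 to 0.14; limma adjusted p = 0.972) and 0.08 ± 0.072 with 1423520_at (-0.07 to 0.24; adjusted p = 0.504), 6 arrays on each side. The complement effect, XX minus XY-, was 0.00 ± 0.064 (-0.14 to 0.14) and 0.01 ± 0.072 (-0.15 to 0.17), with a limma adjusted p of 0.998 for both. Its small size is not independent of the choice of Lmnb1 for opposite complement differences. Every bound of these intervals is smaller in size than the group differences given above, which have opposite signs and cancel in the averages.

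**Figure D2:**
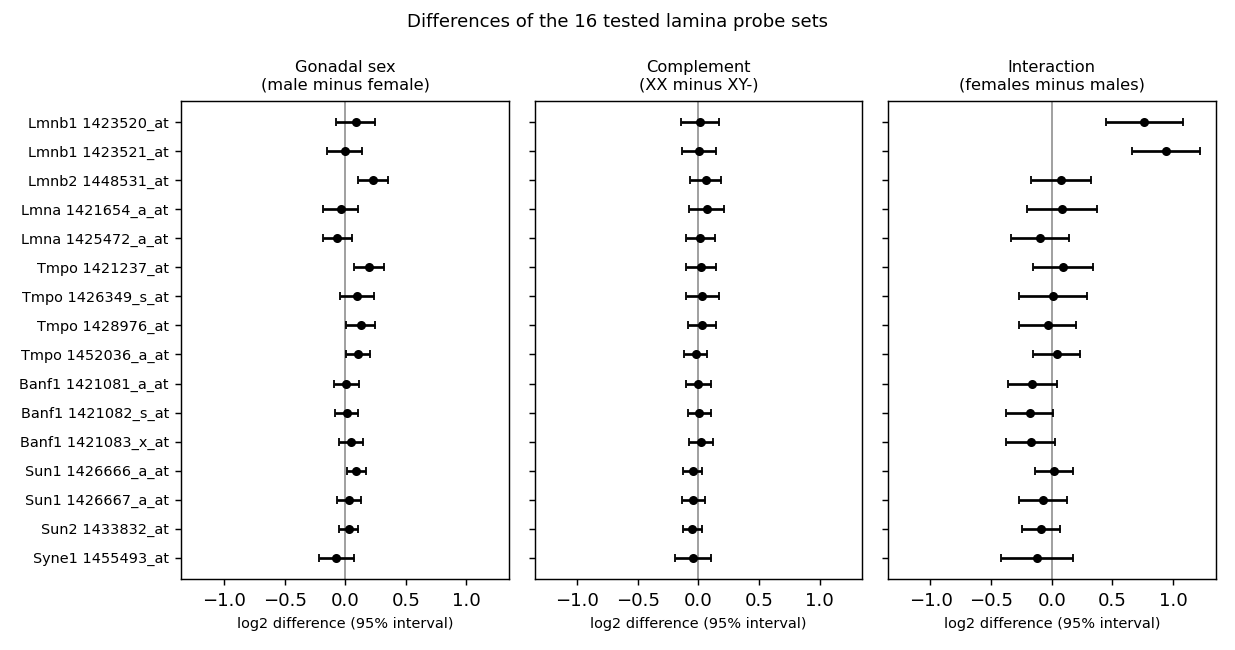
Log2 differences (horizontal axis) of the 16 tested probe sets (rows) with 95% intervals, for gonadal sex, complement and their interaction over 12 arrays. The interactions of Lmnb1, at 0.94 and 0.76, stand to the right of the other 14, which run from -0.18 to 0.09, and in the gonadal sex panel Lmnb2 is highest at 0.23.

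Lmnb2, the second B-type lamin gene, was higher in males, and it was the 1 member called for gonadal sex. Its tested probe set (1448531_at) read 6.07, 6.12 and 6.05 in XX and 6.05, 6.04 and 5.86 in XY- females. In males it read 6.30, 6.20 and 6.31 in XXsry and 6.12, 6.20 and 6.43 in XY-sry. Male and female arrays met at 6.12, the value of XY-sry replicate 1 and of XX replicate 2. The difference was 0.23 ± 0.057 (6 arrays on each side; 95% interval 0.10 to 0.35; limma adjusted p = 0.0371), a fold of 1.17. The call rests on each of several arrays: the adjusted p was 0.0572 to 0.0897 without any 1 of XX replicates 1, 2 and 3, XXsry replicates 1, 2 and 3, XY-sry replicate 3 and XY- replicate 3. The difference in those fits ran from 0.18 to 0.25. It was 0.0537 with the actin covariate and 0.0841 with no filter, at differences of 0.27 and 0.23.

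The complement effect of Lmnb2 was 0.06 ± 0.057 (limma adjusted p = 0.998). Its interaction was 0.08 ± 0.114, so that the male difference was 0.19 within XX and 0.27 within XY-. Its second probe set (1451849_a_at), below the filter with a mean of 4.49, was at 4.35 ± 0.146 (SD, n = 3) in XX, 4.54 ± 0.132 in XXsry, 4.40 ± 0.047 in XY- and 4.68 ± 0.283 in XY-sry. Group means of this dim probe set were thus also higher in males, with overlap between groups.

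Tmpo, the gene of the LAP2 proteins, lay higher in males by all 4 of its tested probe sets, and none passed the test. The nearest to passing (1421237_at) read 6.67, 6.60 and 6.52 in XX, 6.49, 6.63 and 6.46 in XY-, 6.61, 6.92 and 6.70 in XXsry, and 6.73, 6.78 and 6.79 in XY-sry. Male and female arrays overlapped through XXsry replicate 1. The difference was 0.19 ± 0.056 (95% interval 0.07 to 0.32; limma adjusted p = 0.0615). It did pass without XXsry replicate 1 (adjusted p = 0.0400) and without XY- replicate 2 (adjusted p = 0.0337). The other Tmpo probe sets differed by 0.13 (1428976_at), 0.11 (1452036_a_at) and 0.10 (1426349_s_at), with limma adjusted p of 0.170, 0.160 and 0.361. Of these, 1452036_a_at passed without XY- replicate 2 (adjusted p = 0.0461) and with the actin covariate (adjusted p = 0.0488). The suffix of 1426349_s_at marks a probe set that can match transcripts of more than 1 gene.

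In 1452036_a_at the XY-sry arrays lay close together, at 10.53, 10.56 and 10.55, and the XY- arrays ranged from 10.30 to 10.54. Interactions of the 4 Tmpo probe sets lay between -0.03 and 0.09, and complement effects between -0.02 and 0.03. Beside the 0.94 and 0.76 of Lmnb1 these interactions are small, and the difference between the genes was not tested. The remaining 2 Tmpo probe sets had means of 3.35 and 3.31, below the filter. Of these, 1426020_at was lower in males, at 3.18 in XXsry and 3.22 in XY-sry against 3.40 in XX and 3.59 in XY-. The other, 1433026_at, was higher in males, at 3.39 in XXsry and 3.38 in XY-sry against 3.26 in XX and 3.21 in XY-.

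**Figure D3:**
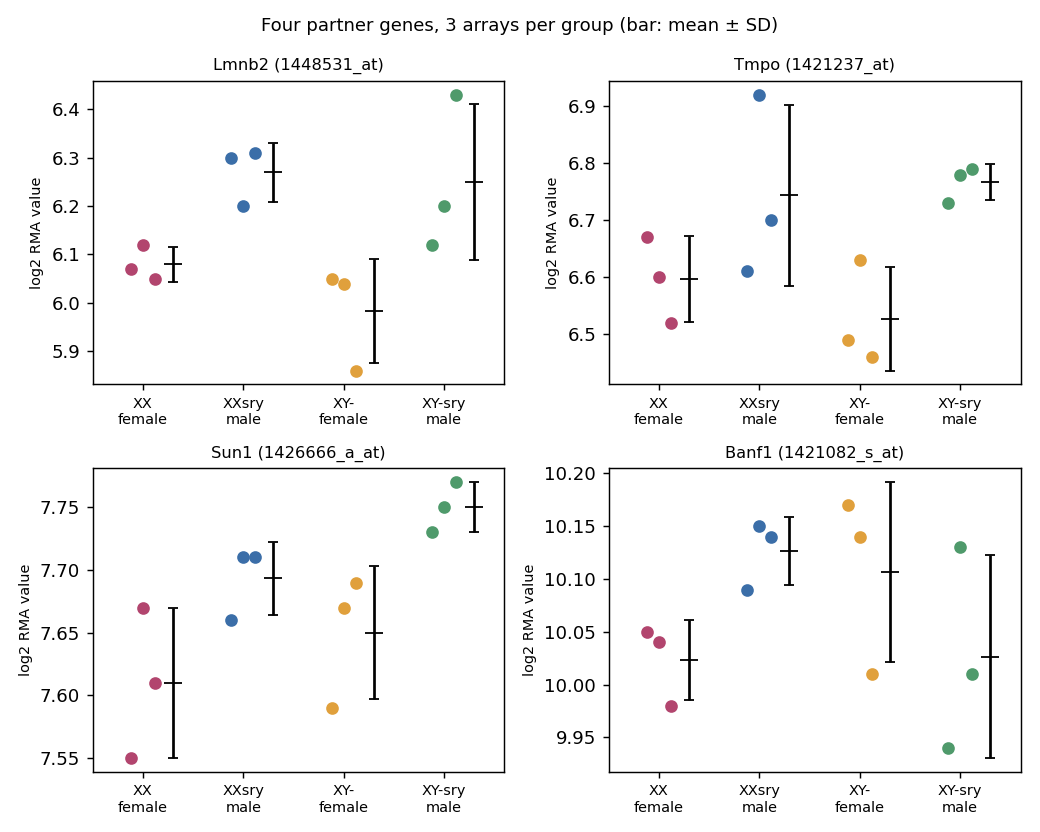
Log2 RMA values (vertical axes, not starting at 0) of Lmnb2, Tmpo, Sun1 and Banf1 in each array of the 4 groups, 1 probe set each, with the mean ± SD. In the Lmnb2, Tmpo (1421237_at) and Sun1 (1426666_a_at) panels 5 of 6 male points lie above every female point. For Tmpo and Sun1 the probe set drawn is that with the lowest gonadal sex p, and the others separate less. Male arrays above every female array number 0 (1426349_s_at), 3 (1428976_at) and 3 (1452036_a_at) for Tmpo. For Sun1 they number 0 (1426667_a_at). In the Banf1 panel the highest means are 10.13 in XXsry and 10.11 in XY-.

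Lmna, the gene of lamins A and C, gave no difference past the test. The first of its tested probe sets (1421654_a_at) read 5.95, 5.96 and 5.88 in XX, 5.93, 5.75 and 5.87 in XXsry, 5.79, 5.64 and 6.03 in XY-, and 5.86, 5.92 and 5.69 in XY-sry. All groups overlapped, and XY- spanned the widest range. Its gonadal sex effect was -0.04 ± 0.067 (95% interval -0.18 to 0.11; limma adjusted p = 0.772), and that of 1425472_a_at was -0.07 ± 0.055 (-0.19 to 0.05; adjusted p = 0.488). The complement effects were 0.07 ± 0.067 and 0.01 ± 0.055, and the interactions 0.08 and -0.10. The other 3 Lmna probe sets had means from 3.04 to 3.44, below the filter.

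Banf1, whose product bridges DNA and binds LAP2 and related proteins of the inner membrane, was measured by 3 probe sets. Of these, 1421082_s_at read 10.05, 10.04 and 9.98 in XX and 10.09, 10.15 and 10.14 in XXsry. It read 10.17, 10.14 and 10.01 in XY- and 9.94, 10.13 and 10.01 in XY-sry. The mean of XXsry was 0.10 above that of XX, and the XY groups overlapped. Arrays of XXsry and XX overlapped in the other 2 probe sets. The order of group means, XXsry, XY-, XY-sry and XX, was the same in all 3 probe sets, which share the same arrays. The suffix of 1421082_s_at marks a probe set that can match transcripts of more than 1 gene. Their interactions were -0.16, -0.18 and -0.17, opposite in sign to Lmnb1 and much smaller, each with a 95% interval that includes 0. Gonadal sex effects were 0.01, 0.01 and 0.05 (limma adjusted p from 0.541 to 0.924) and complement effects 0.00, 0.01 and 0.02.

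Sun1 and Sun2, the inner-membrane ends of the bridge to the cytoskeleton, varied little. For Sun1 (1426666_a_at) the XX arrays read 7.55, 7.67 and 7.61, the XXsry arrays 7.66, 7.71 and 7.71, the XY- arrays 7.59, 7.67 and 7.69, and the XY-sry arrays 7.73, 7.75 and 7.77. Male and female arrays overlapped through XXsry replicate 1, at a difference of 0.09 ± 0.036 (95% interval 0.01 to 0.17, limma adjusted p = 0.139). The second Sun1 probe set (1426667_a_at) differed by 0.03 ± 0.045 (adjusted p = 0.747). Sun2 (1433832_at) ran from 9.23 to 9.42 over all arrays, with a gonadal sex effect of 0.03 ± 0.036 (adjusted p = 0.673) and a complement effect of -0.05 ± 0.036 (adjusted p = 0.998). Its dim probe set (1439238_at), below the filter, read 4.94, 5.46 and 4.51 in XY- and from 4.12 to 4.67 in the other groups, XY- replicate 2 being the highest array.

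Of the nesprin genes, Syne1 was measured above the filter by 1 of 3 probe sets and Syne2 by 0 of 4. The Syne1 probe set (1455493_at) read 7.55, 7.58 and 7.69 in XX, 7.62, 7.75 and 7.42 in XXsry, 7.74, 7.54 and 7.86 in XY-, and 7.66, 7.50 and 7.58 in XY-sry. All groups overlapped, and the gonadal sex effect was -0.07 ± 0.068 (95% interval -0.22 to 0.08; limma adjusted p = 0.554). The other Syne1 probe sets had means of 3.83 and 2.84. The Syne2 probe sets had means of 4.36, 2.90, 2.55 and 2.19. Single values of the Syne2 probe sets ran from 2.06 to 4.64, and they were not tested. All values of 1427982_s_at, from 4.22 to 4.64, lay above the array medians, and the other 3 Syne2 probe sets lay below them.

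**Figure D4:**
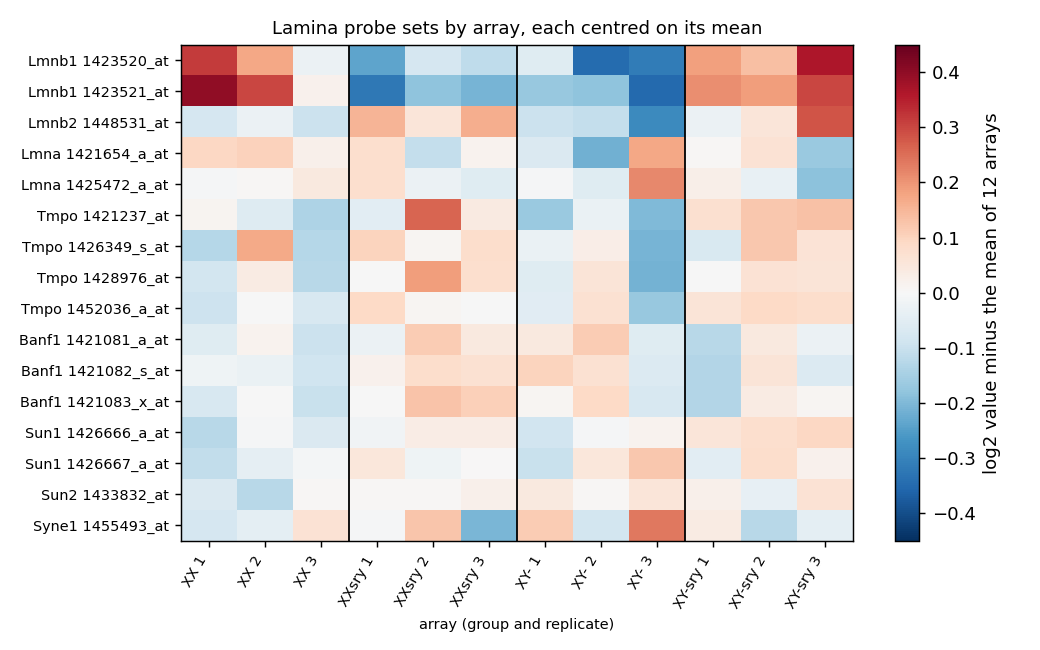
Log2 value minus the mean of 12 arrays (colour) for each of the 16 tested probe sets (rows) in each array (columns, grouped by genotype). The Lmnb1 rows are red in XX and XY-sry and blue in XXsry and XY-, apart from XX replicate 3, which is near the mean; the Tmpo rows are blue in XY- replicate 3.

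Over the 16 tested probe sets, the span between the highest and lowest group mean was 0.48 and 0.47 for Lmnb1 and from 0.08 to 0.29 for the other 14, with a median of 0.13. For gonadal sex, 1 rose, 0 fell and 15 did not pass, against 6.56% of all tested probe sets called (3.95% higher, 2.61% lower), and the median difference was 0.04 beside 0.02 for all. The called share of the members is thus close to the background. With array weights, 5 passed: Lmnb2, 3 probe sets of Tmpo and 1 of Sun1. Under that setting 4361 of all 17925 tested probe sets were called. In 0 of the 16 did all male arrays lie above all female arrays, against 2.28% of all. For complement, 0 of 16 passed in limma (0 also at an unadjusted p under 0.05, which 4.25% of all reached), against 0.0893% of all, and the widest 95% bounds among them were -0.19 and 0.21. A complement effect larger than these bounds, averaged over gonadal sex, lies outside the intervals of every tested member.

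Further genes of the nuclear envelope were taken from lists by function, with 1 probe set per gene. For gonadal sex, 3.95% of all tested probe sets rose, and 24.9% had an unadjusted p under 0.05. Of 12 tested inner nuclear membrane genes 1 rose, Nrm (nurim) at 0.24 ± 0.057 (limma adjusted p = 0.0290), and 0 fell; the list's median was 0.02. Lbr, the lamin B receptor, stood at 0.01 and Emd, the emerin gene, at 0.05. Of 8 genes that process lamins or phosphorylate the Banf1 product, 0 passed in limma (3 at an unadjusted p under 0.05, beside 24.9% of all tested probe sets), with a median of 0.10. Without XY-sry replicate 2, 1 of the 8 rose, and without XY- replicate 2, or with the actin covariate, 1 fell. Rce1, a protease that trims farnesylated proteins such as lamins, rose within XY- (0.21 ± 0.058, limma adjusted p = 0.0461). Within XX it stood at -0.04 and did not pass. Its interaction of 0.25 did not pass either (limma adjusted p = 0.198). Within XY- 8.64% of all tested probe sets were called, 4.27% of them higher among all tested. Nrm and the nuclear pore genes Aaas, Nup133 and Nup155 also rose there, so the call is not particular to Rce1.

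Where 3.95% of all tested probe sets rose and 2.61% fell, 3 of 25 tested nuclear pore genes rose in males and 0 fell. They were Aaas (0.19 ± 0.036, limma adjusted p = 0.0138), Nup133 (0.175 ± 0.038, adjusted p = 0.0232) and Nup155 (0.15 ± 0.040, adjusted p = 0.0418), all components of the pore. Of the 25, 24 had a difference above 0, with a median of 0.10, beside 57.6% of all tested probe sets above 0. At an unadjusted p under 0.05 in limma there were 10, beside 24.9% of all. The list score, an average of its genes after each was centred on its mean, ran from 0.026 to 0.10 in males. In females it ran from -0.098 to 0.019, so the sexes did not overlap, by a narrow margin. Every other list score computed, for the members, further lists and cell markers, overlapped between the sexes. Without XY- replicate 2 the count was 6, and it was 1 without XX replicate 1 or 3, XXsry replicate 2 or 3 or XY-sry replicate 3, and 1 with the actin covariate. For Nrm the count of 1 became 0 with that covariate and without XX replicate 1, 2 or 3, XXsry replicate 2 or 3, or XY-sry replicate 2 or 3.

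For the interaction, the contrast in which Lmnb1 stood out, 0 of 12 inner membrane, 0 of 8 processing and 0 of 25 pore genes passed in limma, where 1.29% of all did. At an unadjusted p under 0.05 there were 1, 1 and 5, beside 13.4% of all tested probe sets. Their medians were 0.05, 0.15 and 0.05, beside 0.04 for all tested probe sets. The largest value among the pore genes was that of Aaas, at 0.30 ± 0.073 (adjusted p = 0.0717). For complement 0 genes of the 3 lists passed in limma, with 1, a pore gene, at an unadjusted p under 0.05.

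Loss of Lmnb1 is known as a mark of senescent cells, which no longer divide, so a list of 20 tested cell cycle genes was set next to the lamina genes. For gonadal sex 2 rose, where 3.95% of all tested probe sets did. The 2 were Mcm7 (0.17 ± 0.038, limma adjusted p = 0.0247) and Mcm6 (0.20 ± 0.050, adjusted p = 0.0388), both subunits of the replicative helicase. The other 18 did not pass. Of the 20, 13 had an unadjusted p under 0.05 in limma, beside 24.9% of all tested probe sets. All 20 had differences above 0, with a median of 0.15, beside 57.6% of all above 0 and a median of 0.02. The list score ran from -0.133 to -0.022 in XX, 0.028 to 0.089 in XXsry, -0.208 to 0.044 in XY- and 0.005 to 0.172 in XY-sry. Males lay above females without overlap within XX, and within XY- they overlapped through XY- replicate 2, at 0.044. The part of this list in the Lmnb1 and Lmnb2 differences was not tested. For the interaction 0 of 20 passed (0 at an unadjusted p under 0.05, limma), with a median of 0.02. The count for gonadal sex was 7 without XY- replicate 2, 5 with the actin covariate, 1 without XX replicate 1, XXsry replicate 1, XY-sry replicate 2 or XY- replicate 1 or 3, and 0 without XX replicate 3, XXsry replicate 2 or 3 or XY-sry replicate 3.

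**Figure D5:**
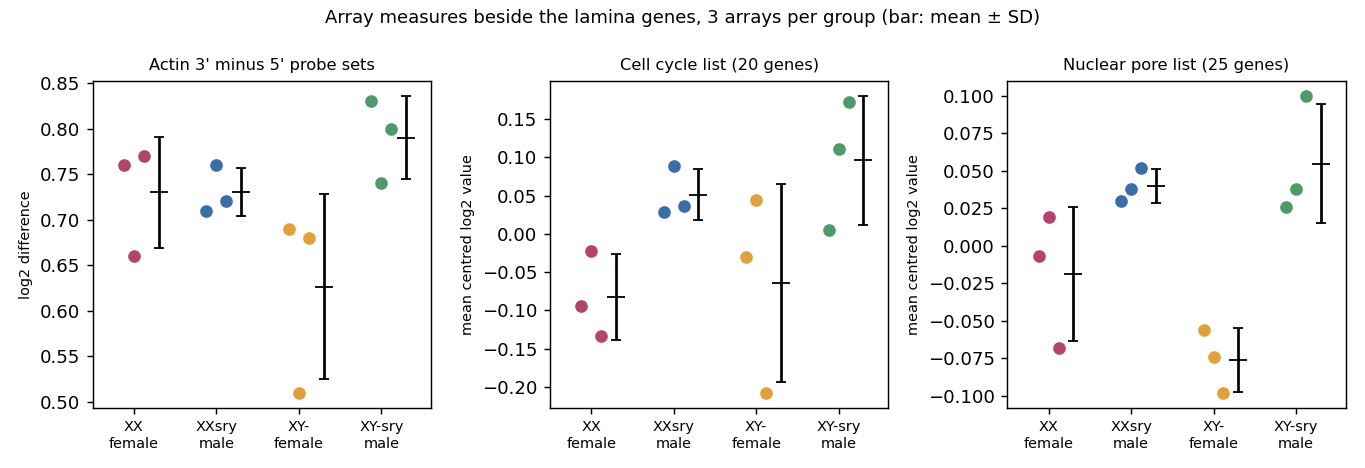
Actin 3' minus 5' log2 difference, and mean centred log2 value of the 20 cell cycle and the 25 nuclear pore genes (vertical axes), in each array of the 4 groups with the mean ± SD. The pore score separates males (0.026 to 0.10) from females (-0.098 to 0.019) by a narrow margin, which no other list score does. The actin difference is lowest in XY- replicate 2, at 0.51.

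Markers of other cells in the tissue were read in the same arrays, since lamin levels differ between cell types. Of 4 tested fibroblast genes 2 rose in males, Dcn (0.40 ± 0.069, limma adjusted p = 0.00752) and Lum (0.48 ± 0.105, adjusted p = 0.0240), matrix proteoglycans. The collagen genes Col3a1 (-0.24 ± 0.104, adjusted p = 0.171) and Col1a2 (-0.07 ± 0.065, adjusted p = 0.580) had differences of the other sign and did not pass, and Col1a1 and Pdgfra were below the filter. The fibroblast score overlapped between the sexes (-0.046 to 0.194 in males, -0.168 to 0.089 in females). Of 9 thymocyte genes Rag2 fell (-0.19 ± 0.041, adjusted p = 0.0223), and of 3 tested B cell genes Ms4a1 fell (-0.59 ± 0.125, adjusted p = 0.0210). Among all tested probe sets 3.95% rose and 2.61% fell. The fibroblast count was 1 without XX replicate 3, XXsry replicate 3, XY-sry replicate 1 or 3 or XY- replicate 1. The count of thymocyte genes that fell was 0 without XXsry replicate 2 or 3 or XY-sry replicate 1, and 1 rose without XY- replicate 1. The count of B cell genes was 0 without XX replicate 1 or XXsry replicate 3, and 2 without XXsry replicate 1 or XY- replicate 2. With the actin covariate the counts were 1, 0 and 0.

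Neutrophil markers lay lower in males, with a median difference of -1.08 over 5 genes; 0 passed in limma and 4 had an unadjusted p under 0.05, which 24.9% of all tested probe sets had. Of these, S100a8 and S100a9 differed by -1.33 ± 0.383 (adjusted p = 0.0597) and -1.40 ± 0.451 (adjusted p = 0.0834), and 2 of the 5 passed without XXsry replicate 3 or XY- replicate 2. Macrophage and dendritic cell markers had 0 of 5 past the test in limma (2 at an unadjusted p under 0.05; 1 passed without XY- replicate 2), with Csf1r at -0.20 and Cd68 at -0.10. Thymic epithelium had 0 of 6 (2 at an unadjusted p under 0.05), with Prss16 at 0.11 and Krt8 at 0.03. Endothelium had 0 of 2 (0 at an unadjusted p under 0.05), with Pecam1 at 0.01 and Kdr at 0.00, and fat 0 of 2 (0 at an unadjusted p under 0.05), with Fabp4 at 0.01 and Adipoq at -0.62. Skeletal muscle, where nesprins are abundant, had 1 of 6 markers above the filter, Mylpf (0.08 ± 0.063, adjusted p = 0.486), and red cells had 0 of 3. For the interaction 0 genes of these marker lists passed in limma, with 1 each of the thymocyte, epithelium and fibroblast lists at an unadjusted p under 0.05. The part of these cells in the Lmnb2 difference was not tested.

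The genes whose values followed Lmnb1 most closely over the 12 arrays, by Pearson correlation with 1423521_at among single-gene probe sets, were Swi5 (0.89), Snrpd3 (0.88), Ldah (0.88), Prpf19 (0.87) and Cipc (0.86). Prpf19 and Snrpd3 encode components of the splicing machinery, and Swi5 a factor of DNA repair by recombination. Their group means had the same division: Snrpd3 was at 9.21 in XX and 9.38 in XY-sry, against 8.81 in XXsry and 8.73 in XY-. Lowest were Xiap (-0.88), an inhibitor of apoptosis, Myh9 (-0.87), the heavy chain of a non-muscle myosin, and Iqgap1 (-0.86), a scaffold of the cell cortex. Myh9 (1420170_at) stood at 6.22 in XX and 5.94 in XY-sry, against 6.72 in XXsry and 6.78 in XY-. Among the other lamina genes the correlation ran from -0.51 for Sun2 to 0.32 for Tmpo (1421237_at), with Lmnb2 at 0.21. These values describe arrays that form 4 groups and share their normalization, and genes were ranked on them after all probe sets had been compared.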

How the data were processed

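Thymus RNA was measured on 12 arrays, 3 per group. The deposited log2 values come from the authors' RMA run, a step that the submitters' processing notes name without a version. RMA already includes quantile normalization, which can hide shifts common to most probes. The array's 64 control probe sets, of 45101, were dropped, and probe sets averaging 5 or more on the log2 scale were tested. Symbols came from the platform gene table, in which no member shared a probe set with another named gene. A model with 1 mean for each of the 4 groups (8 residual degrees of freedom) was fitted by limma 3.58.1 under R 4.3.3, with Benjamini-Hochberg adjustment over all 17925 probe sets and a threshold of 0.05. The fit was tested on simulated data. Lists used the probe set with the highest mean per gene. The members and lists were chosen with earlier results of these data known. All members were named, and from each list the genes past the threshold or, where none passed, the 2 with the highest mean; the 5 genes with the highest and the 3 with the lowest correlation with Lmnb1 were also named. Lbr, Emd, Col3a1 and Col1a2 were named after their values were seen. Alternatives changed the filter, normalization, variance model, array weights, covariates, probe sets per gene and arrays. Figures were drawn with matplotlib 3.10.9. The number of arrays limits precision.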

Additional observations from a re-analysis of the deposited data

Results flagged for a closer look

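Lmnb1 was singled out because its complement difference in females and in males differed by the interaction term, which is also the measure by which the gene was chosen. The interaction was 0.94 with 1423521_at and 0.76 with 1423520_at, and in both probe sets every XX array lay above every XY- array while every XXsry array lay below every XY-sry array.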

How the results depend on the processing

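Counts refer to the 16 tested member probe sets past an adjusted p of 0.05 in limma. For gonadal sex the count of 1 was 0 with no filter, 2 with arrays centred on their medians and 5 with array weights, and ran from 0 to 3 with each array left out. Of all 17925 tested probe sets, 1176 were called in the main fit, 1097 with median centring and 4361 with array weights. With no filter 692 of 45037 were called. For the interaction the count of 2 was 0 with the actin covariate and 1 with 1 probe set per gene (Lmnb1 then has 1), and ran from 0 to 2 with each array left out. Of all 17925, 232 were called in the main fit and 1 with the actin covariate, and 15 of 9496 with 1 probe set per gene. Within XX, the count of 1 for gonadal sex was 0 with no filter, with the replicate block and with only the groups compared, and 2 with array weights (0 to 1 with each array left out). Among all 17925 the calls were 133 in the main fit, 118 with the block and 216 with only the groups compared. They were 1320 with array weights, and 94 of 45037 with no filter. Within XY-, the count of 2 was 4 with median centring, 6 with array weights, 1 with 1 probe set per gene, and 0 with the actin covariate and with only the groups compared (0 to 3 with each array left out). Calls among all 17925 were 1549 in the main fit, 1872 with median centring and 4245 with array weights. They were 54 with the actin covariate, 72 with only the groups compared, and 698 of 9496 with 1 probe set per gene. For complement within females the count of 0 was 1 with the trend and robust variance model and 2 with array weights. Within males it was 1 with each of these and with only the groups compared. Both member counts ran from 0 to 1 with each array left out. Within females 14 of all 17925 were called in the main fit, 23 with the trend and robust model and 1477 with array weights. Within males the numbers were 23, 48 and 522, and 70 with only the groups compared. The overall complement count was 0 under every alternative run. No called difference of a single member probe set changed sign. Of 978 values, 26 lost a call and 10 gained one. Only differences called in the main fit could lose a call. Lmnb2 lost that for gonadal sex in 11 of 21 alternatives. Lmnb1 lost that for the interaction in 9 of 20 (1423520_at) and 6 of 21 (1423521_at). Another 72 values that were not called changed sign. For settings other than those that test other probe sets or fewer samples, the cause was not tested.

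Replicate numbers are shared by the groups. Of 18 same-number pairs 8 had a correlation of deviations over 0.1 (lowest -0.083), where pairing was taken only if all were, so the main fit has no block. The labels do not say that a number marks a shared batch; 8 of 12 arrays correlated best with an array of their own number, a hint from the data that numbers may be shared. With the replicate block the counts stayed at 1 for gonadal sex, though by Tmpo (1421237_at, adjusted p = 0.0497) in place of Lmnb2 (0.0537), at 2 for the interaction and at 0 for complement. The 13 of 29 probe sets below the filter were not tested, which limits what can be said of Syne2 and of second probe sets.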
